A study of Homo sapiens with 192 samples.

Results

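The circadian clock genes PER1, PER2, PER3, CRY1, CRY2, NR1D1, NR1D2, BHLHE40, DBP and TEF were followed in 4 human colorectal cancer (CRC) cell lines. The members were chosen by name and mapped to the counts through their Ensembl identifiers, which found all 10 of them among the 58243 genes listed. The lines HT29, LS513, HCT116 and LS174T are established lines derived from colorectal carcinomas, and the labels name no drug and no genetic change in any group. Each line was grown in 2D or in 3D, with 3 libraries per line and growth condition, which made 8 groups and 24 libraries. Poly(A)-selected RNA was sequenced, and the 8 technical replicates of a library (7 for HT29 3D replicate 4) were summed. HT29, LS513 and LS174T were maintained in DMEM and HCT116 in McCoy medium, so the line and its medium cannot be told apart when HCT116 is compared with the others. The time of harvest and any synchronisation of the cells are not given in the sources used here, so each library is a single sampling of an unknown circadian phase. The labels do not say whether the 3 libraries of a group came from separate cultures, and p-values then measure only the spread between these libraries.

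The mammalian clock is a transcriptional loop in which CLOCK and ARNTL (BMAL1) bind E-box sequences and activate the PER and CRY genes, whose proteins return to the nucleus and repress that activation. A second loop is formed by the nuclear receptors NR1D1 (REV-ERB alpha) and NR1D2 (REV-ERB beta), which repress ARNTL. BHLHE40 (DEC1) is an E-box repressor that also responds to hypoxia, and DBP and TEF are PAR bZIP factors that carry the rhythm to output genes through the D-box. In a dish without a synchronising cue, cells of a culture drift out of phase, and a bulk library then reads the average over all phases.

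Library totals ranged from 18723942 to 34277421 counts, which puts the detection floor of 3 counts from 0.0875 to 0.160 CPM, in which each count is scaled to the total of its library. The floor covers counting error only. The epithelial markers EPCAM, CDH1, KRT8, KRT18, CDX2 and VIL1 summed to between 2797 and 16430 CPM in every library, although VIL1 was at 4 to 9 counts in the HCT116 libraries. Of the blood, endothelial and fibroblast markers given here, PTPRC and DCN never exceeded 2 counts, and CD3E and COL1A2 were at 0 in all 24 libraries. VWF reached 22 counts, PECAM1 76 in HT29 and COL1A1 655 in HCT116, and VWF was called higher in 3D in LS513 and HCT116. CD68, at 73 to 2584 counts, was called higher in 3D in all 4 lines by 0.92 to 2.01 on the log2 scale, but 81.7% of its exonic bases also belong to a same-strand read-through gene. The part of these markers in the results was not tested. Over all tested genes, LS174T 3D replicate 2 lay farthest from the other libraries of its group, with a median absolute difference of 0.22 on the log2 scale. The median difference of the clock genes in it was -0.17, with 2 members higher. The medians given here for the clock genes keep their sign, so differences in opposite directions cancel in them. In this library CRY1 held 30.8 CPM against 45.1 and 46.8 CPM in the others of its group. PER1 held 27.3 CPM there against 19.6 and 21.5 CPM. Some 2D libraries also stood apart for the clock genes. In HCT116 2D replicate 3, all 10 members were higher than the mean of the other HCT116 2D libraries, with a median difference of 0.61 on the log2 scale, while the median absolute difference over all tested genes was 0.15. In HT29 2D replicate 3, 8 members were higher than in the other HT29 2D libraries, with a median of 0.40 against a median absolute difference of 0.10 over all tested genes, and in HT29 2D replicate 2 the median was -0.39 against 0.09. In 2D replicate 3 of LS513 and LS174T, 8 and 7 members were higher, with medians of 0.17 and 0.02. The median absolute difference over all tested genes was 0.07 and 0.06 there, so the LS174T library did not stand apart by its median. Calls that changed without one of these libraries are given with the gene.

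The promoters show which clock elements stand next to the members. RefSeq promoter windows (GRCh38.p14) were found for all 10 members. For each member only the first listed window was used, and any other start of the gene was not searched. The 250 bases before the RefSeq start of that window were searched on both strands. The letters sought were the E-box CACGTG, the E-prime box CACGTT, the D-box TTANGTAA and the cyclic AMP element TGACGTCA. The E-box was found in PER1, BHLHE40 and TEF, and 6.34% of all 35116 windows hold it. The E-prime box was found in PER2, CRY1 and NR1D1, against 4.55% of all windows. The D-box was found in PER3, against 1.98% of all windows. CRY2, NR1D2 and DBP held none of these letters in this window, and no member held the cyclic AMP element, which 1.65% of all windows hold. The windows of BHLHE40, NR1D1 and PER1, whose growth effect was called different between lines, and of CRY1, called lower in 3 lines, are shown 5′ to 3′ with the matches in capitals.
BHLHE40 (chr3:4979187-4979436, plus strand): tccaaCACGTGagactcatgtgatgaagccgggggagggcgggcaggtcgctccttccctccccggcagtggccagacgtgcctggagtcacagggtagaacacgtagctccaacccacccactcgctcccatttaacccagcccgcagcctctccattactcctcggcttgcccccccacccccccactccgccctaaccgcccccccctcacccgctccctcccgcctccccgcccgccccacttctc
CRY1 (chr12:107093550-107093799, minus strand): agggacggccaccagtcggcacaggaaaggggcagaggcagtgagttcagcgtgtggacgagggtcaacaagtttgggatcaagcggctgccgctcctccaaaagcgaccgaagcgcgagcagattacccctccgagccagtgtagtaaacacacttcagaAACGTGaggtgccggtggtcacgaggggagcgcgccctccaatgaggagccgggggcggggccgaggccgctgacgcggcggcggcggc
NR1D1 (chr17:40100590-40100839, minus strand): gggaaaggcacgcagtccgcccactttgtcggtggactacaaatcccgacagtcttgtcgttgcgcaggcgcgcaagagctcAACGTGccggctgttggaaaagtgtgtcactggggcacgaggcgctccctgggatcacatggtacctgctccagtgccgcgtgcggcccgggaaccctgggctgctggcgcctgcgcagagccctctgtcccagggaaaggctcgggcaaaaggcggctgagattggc
PER1 (chr17:8152405-8152654, minus strand): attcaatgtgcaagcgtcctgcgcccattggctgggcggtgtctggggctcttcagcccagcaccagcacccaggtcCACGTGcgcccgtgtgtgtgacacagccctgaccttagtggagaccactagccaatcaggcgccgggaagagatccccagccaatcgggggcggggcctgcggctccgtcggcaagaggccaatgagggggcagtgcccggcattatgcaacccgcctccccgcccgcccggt
The match begins 245 bases before the RefSeq start in BHLHE40, 173 in PER1, 168 in NR1D1 and 89 in CRY1. This start can differ from the gene bounds given below. The windows shown for BHLHE40, CRY1 and PER1 lie inside those bounds, and that of NR1D1 lies partly inside them. A match is a description of the letters and not a binding site.

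All 10 members passed the filter on low counts that left 19387 genes, although PER3 passed through the other lines and was at the floor in LS174T. Levels are CPM after TMM scaling, and differences are log2 of 3D over 2D from edgeR's quasi-likelihood fit of all 24 libraries, with p adjusted over all tested genes. In HT29, 1 of the 10 members was called higher in 3D, where 21.1% of all tested genes were called higher, and 1 was called lower, against 19.6% of all genes. In LS513, 2 members were called higher against 13.7% of all genes and 1 was called lower against 9.9%. In HCT116, 5 members were called higher against 16.8% of all genes and 1 was called lower against 12.3%. In LS174T, 1 member was called higher against 13.1% of all genes and 0 were called lower against 9.15%. At an unadjusted p under 0.05 the count of lower members in LS174T was also 0, and DESeq2 called 0. Over the members, the difference had a median of 0.46 in HCT116, 0.15 in LS513 and -0.10 in HT29, and of 0.06 over the 9 members above the floor in LS174T (-0.03 with PER3). The medians over all tested genes lay between 0 and 0.02. The 2D and 3D libraries did not overlap for 3 members in HT29, where this held for 52.9% of all genes. The same count was 5 in LS513 against 42.9% of all genes, 5 in HCT116 against 40.4% and 4 in LS174T against 38.5%.

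**Figure D1:**
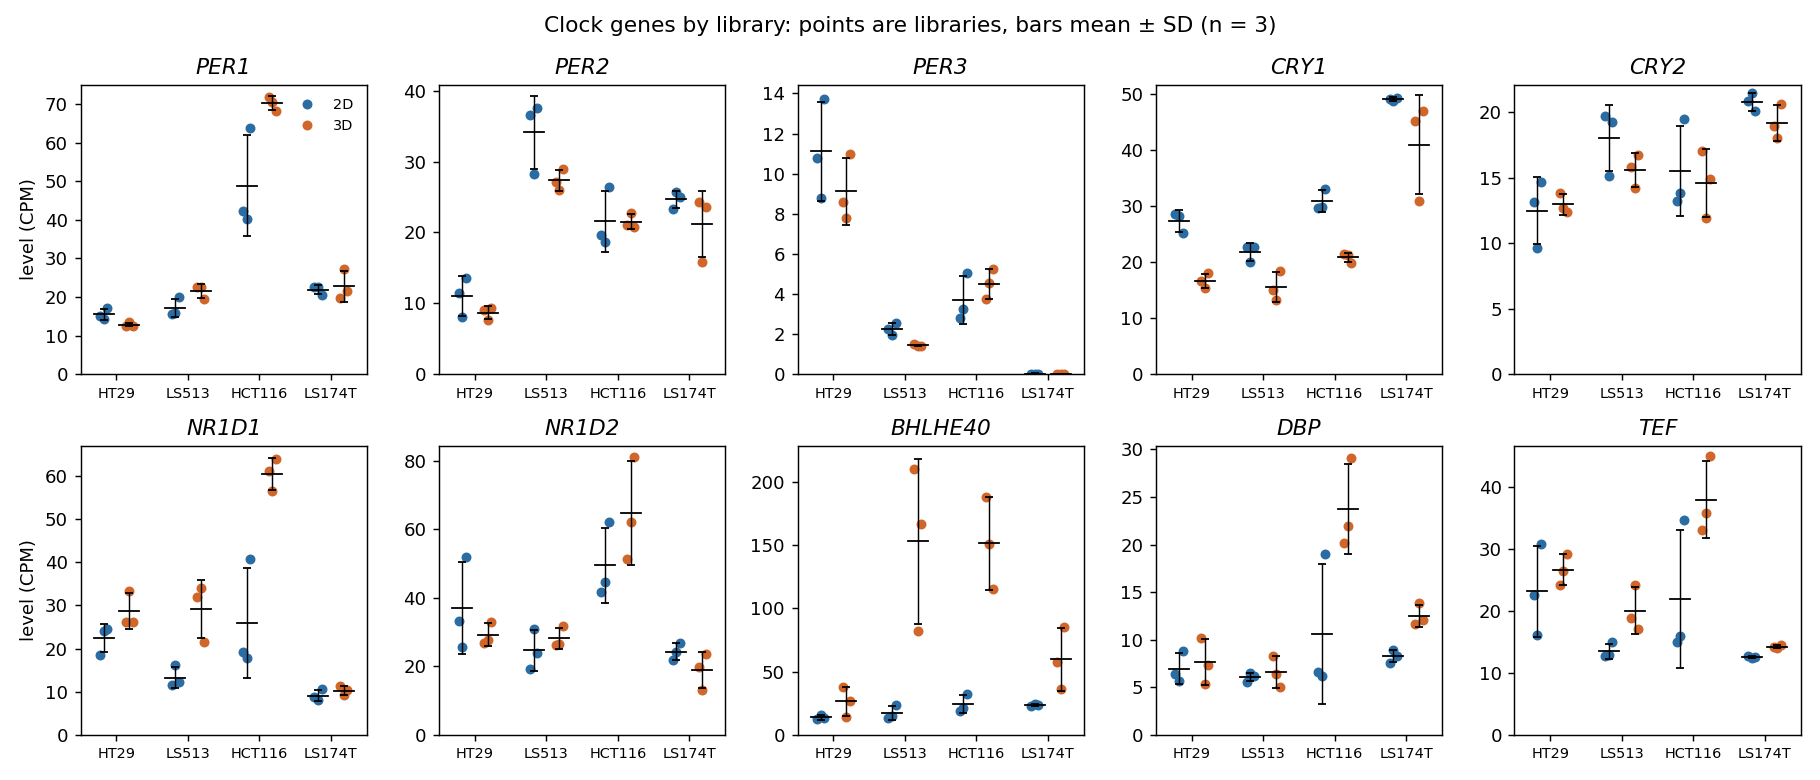
Level in CPM (vertical axis, from 0) of each of the 10 clock genes in the 2D (blue) and 3D (orange) libraries of the 4 lines, with the mean ± SD of 3 libraries in black. BHLHE40 reached 82.3 to 210 CPM in LS513 3D and 115 to 188 CPM in HCT116 3D, and PER3 was at 0 to 1 count in LS174T.

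**Figure D2:**
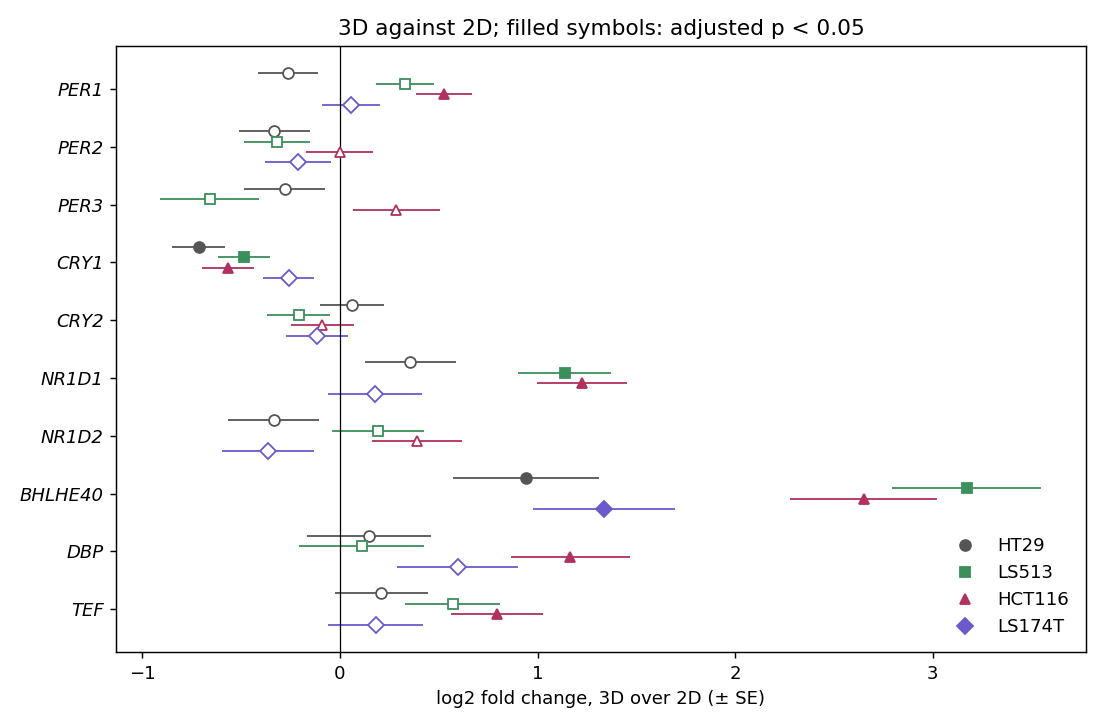
Difference between growth conditions (log2 of 3D over 2D, horizontal axis, ± SE) for each clock gene in each line, with filled symbols for an adjusted p under 0.05. BHLHE40 was called higher in all 4 lines and CRY1 lower in HT29, LS513 and HCT116. PER3 in LS174T is left out because it was at the floor.

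BHLHE40 had the largest difference of the members between growth conditions in each line, PER3 in LS174T left aside, and was called higher in 3D in all 4 lines. Its gene (ENSG00000134107) lies on the plus strand at chr3:4979116-4985323 (GRCh38) and has 5 exons. In LS513 the 2D libraries held 13.0, 14.5 and 23.4 CPM and the 3D libraries 210, 82.3 and 166 CPM. In HCT116 the 2D libraries held 18.7, 21.5 and 32.1 CPM and the 3D libraries 188, 151 and 115 CPM. The groups were well apart in both lines, with the lowest 3D library above the highest 2D library by more than the range of the 2D libraries. The difference was 3.17 ± 0.38 (log2 ± SE, n = 3 and 3, adjusted p = 4.1e-06) in LS513, a fold of 9.0, and 2.65 ± 0.37 (adjusted p = 2.5e-05) in HCT116, a fold of 6.28. In LS174T the level went from 22.5, 24.6 and 23.9 CPM in 2D to 57.6, 36.1 and 85.4 CPM in 3D, again without overlap. The difference in LS174T was 1.34 ± 0.36 (adjusted p = 0.012), and without LS174T 3D replicate 3 it was 0.99 with an adjusted p of 0.063, no longer called. In HT29 the 2D libraries held 12.6, 15.6 and 13.1 CPM and the 3D libraries 37.7, 14.3 and 27.1 CPM, so the groups overlapped through the 3D library with 14.3 CPM. The call in HT29 was at the threshold, with a difference of 0.94 ± 0.37 and an adjusted p of 0.047. Without HT29 3D replicate 1 the difference was 0.62 with an adjusted p of 0.23, and leaving out any of 13 other libraries also ended the call. These included all 3 HT29 2D libraries and HT29 3D replicate 4, and without HT29 3D replicate 3 the adjusted p was 0.0097.

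The size of the BHLHE40 difference varied between the lines. A test of whether the growth effect differs between the 4 lines gave an adjusted p of 0.008 for BHLHE40 and called 3 of the 10 members, where it called 17.1% of all tested genes. Of the 6 pairs of lines, HT29 minus LS513 gave -2.23 ± 0.51 (adjusted p = 0.0059), where this pair called 12.1% of all genes. HT29 minus HCT116 gave -1.71 ± 0.51 (adjusted p = 0.044), where 7.76% of all genes were called. LS513 minus LS174T gave 1.84 ± 0.50 (adjusted p = 0.046), where 3.62% of all genes were called. No member was called for HT29 against LS174T, where 6.65% of all genes were, for LS513 against HCT116 (4.34%) or for HCT116 against LS174T (4.75%). At an unadjusted p under 0.05 these pairs had 1 (CRY1), 2 (PER3 and DBP) and 4 members (PER1, NR1D1, NR1D2 and BHLHE40). The share of all genes at this looser threshold was not computed, so these counts cannot be set against the shares above. In 2D alone the levels of BHLHE40 were not called different between the lines (adjusted p = 0.12), where 91.7% of all genes were. In the order of the 8 groups, LS513 3D and HCT116 3D came first and overlapped, HCT116 3D was clear of LS174T 3D, and each group further down overlapped the next.

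Hypoxia-responsive genes, read as a list, were higher in 3D in each line, as BHLHE40 was. Their part in the result was not tested. Of a list of 10 such genes, edgeR called all 10 higher in 3D in HCT116 and LS174T, 9 in LS513 and 7 in HT29, and none had a difference below 0. Of all tested genes, 16.8% were called higher in HCT116, 13.1% in LS174T, 13.7% in LS513 and 21.1% in HT29. The list had a median difference of 2.09 in LS174T, 1.81 in HCT116, 1.63 in LS513 and 1.25 in HT29, against 0 to 0.02 over all tested genes. In LS513 and HT29, where BNIP3 was at the floor, the median without it was 1.63 and 1.36. NDRG1, a stress-responsive gene induced under low oxygen, rose in each line. Its HT29 level was 14.6 ± 1.2 CPM in 2D and 295 ± 97 CPM in 3D (SD, n = 3), and its LS513 level 40.9 ± 1.4 and 400 ± 100 CPM. In HCT116 it was 43.9 ± 8.2 and 901 ± 248 CPM, and in LS174T 34.0 ± 3.3 and 637 ± 67 CPM. PDK1 in HT29, P4HA1 in LS513 and HCT116 and BNIP3 in LS174T rose by 1.36, 1.63, 2.15 and 2.40 on the log2 scale. The order of the lines was not the same for the list and for BHLHE40, since LS174T had the highest list median and the third BHLHE40 difference. After subtracting the mean of each line, the genes with levels most like BHLHE40 over the 24 libraries were DDIT4 (Pearson r = 0.95), TMCC1 (r = 0.95) and MXI1 (r = 0.94), values that share the growth difference and the scaling of the libraries.

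**Figure D3:**
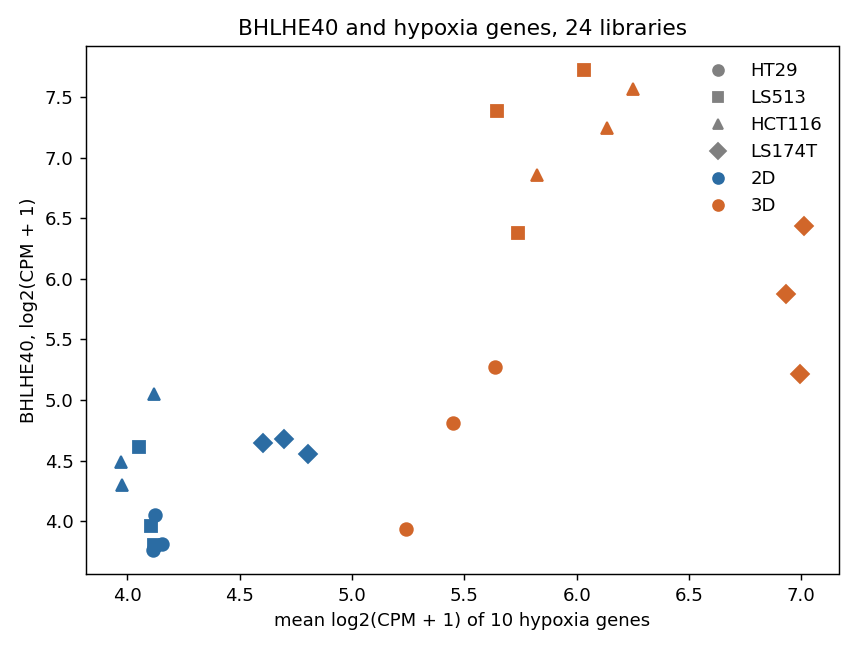
BHLHE40 (vertical axis) against the mean of 10 hypoxia-responsive genes (horizontal axis), both as log2(CPM + 1), in the 24 libraries, with symbols for lines and colours for 2D and 3D. All 3D libraries lie to the right of all 2D libraries, and the 3 LS174T 3D libraries lie farthest right but below all 3 HCT116 3D libraries.

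CRY1, one of the 2 cryptochromes that repress CLOCK and ARNTL, was lower in 3D in 3 lines. It lies on the minus strand at chr12:106991364-107093829 and has 13 exons. In HT29 the 2D libraries held 28.6, 28.2 and 25.1 CPM and the 3D libraries 16.6, 15.4 and 17.9 CPM. In HCT116 they held 29.6, 29.7 and 33.0 CPM in 2D and 21.3, 21.3 and 19.8 CPM in 3D. In LS513 they held 22.7, 20.0 and 22.6 CPM in 2D and 15.0, 13.1 and 18.5 CPM in 3D. All 2D libraries of these lines were above all 3D libraries of the same line. CRY1 fell by 0.71 ± 0.13 on the log2 scale in HT29 (adjusted p = 2e-04), by 0.56 ± 0.13 in HCT116 (adjusted p = 0.0024) and by 0.49 ± 0.13 in LS513 (adjusted p = 0.0097). Without LS513 3D replicate 2 the LS513 value was -0.39 with an adjusted p of 0.079, no longer called. LS174T, which had the highest CRY1 levels of the 4 lines, held 49.1, 48.7 and 49.3 CPM in 2D and 45.1, 30.8 and 46.8 CPM in 3D. Its difference was -0.26 ± 0.13 (adjusted p = 0.15), and without LS174T 3D replicate 3 it was -0.37 (adjusted p = 0.048). The growth effect on CRY1 was not called different between lines (adjusted p = 0.30), but without LS174T 3D replicate 2, the low library with 30.8 CPM, that adjusted p was 0.023. The genes with levels most like CRY1 were CUL4A (r = 0.96), PUS7 (r = 0.95) and LUC7L2 (r = 0.94).

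CRY2 (chr11:45847118-45883248, plus strand), the other cryptochrome, was not called in any line. The difference was -0.21 ± 0.16 in LS513, -0.12 ± 0.16 in LS174T, -0.09 ± 0.16 in HCT116 and 0.06 ± 0.16 in HT29, with adjusted p from 0.39 to 0.83. Over the 24 libraries CRY2 ranged from 9.63 CPM in a HT29 2D library to 21.5 CPM in a LS174T 2D library. Among the 8 groups in order of their means, every neighbour overlapped the next. HLF, AC007342.7 and PER2 had the levels most like CRY2 (r = 0.72, 0.67 and 0.66).

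NR1D1 rose in 3D in LS513 and HCT116. The gene lies on the minus strand at chr17:40092787-40100725, has 8 exons and shares 9.5% of its exonic bases with THRA on the opposite strand. Its counts are uncertain if strand was not used in the counting, and this share does not give the size of the error. In LS513 the libraries held 11.5, 16.1 and 12.1 CPM in 2D and 31.9, 34.0 and 21.5 CPM in 3D. In HCT116 they held 19.1, 17.9 and 40.7 CPM in 2D and 61.0, 56.6 and 63.9 CPM in 3D. The 3D libraries were above the 2D libraries in both lines, and the value of 40.7 CPM belongs to HCT116 2D replicate 3. The difference was 1.14 ± 0.23 in LS513 (adjusted p = 0.001) and 1.23 ± 0.23 in HCT116 (adjusted p = 0.00034), and without that library the HCT116 value was 1.68. In HT29 the means were 22.4 ± 3.3 and 28.6 ± 4.1 CPM in 2D and 3D (difference 0.36, adjusted p = 0.23), with no overlap of the libraries. In LS174T, the line with the lowest NR1D1 levels, they were 9.09 ± 1.29 and 10.3 ± 1.1 CPM (difference 0.18, adjusted p = 0.64). The growth effect on NR1D1 was called different between lines at an adjusted p of 0.042, but the call was lost when any of 17 of the 24 libraries was left out, with adjusted p up to 0.089. Without HCT116 2D replicate 3 it was 0.00034. No single pair of lines was called for NR1D1, the nearest being HCT116 minus LS174T at 1.05 ± 0.33 (adjusted p = 0.073). AP001453.2, KLC3 and SDC4 had the levels most like NR1D1 (r = 0.90, 0.90 and 0.89).

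NR1D2 (chr3:23945260-23980618, plus strand), the second REV-ERB gene, was not called in any line. The difference was 0.39 ± 0.23 in HCT116, 0.19 ± 0.23 in LS513, -0.34 ± 0.23 in HT29 and -0.36 ± 0.23 in LS174T, with adjusted p from 0.21 to 0.61. The 2D and 3D libraries overlapped in every line, and the HT29 2D libraries alone spanned 25.7 to 51.8 CPM. Without HT29 2D replicate 3, the highest of them, the HT29 difference was 0.008. Levels per kilobase used the exonic bases of all annotated transcripts of a gene, 2772 for NR1D1 with 1 transcript and 7002 for PER1 with 19. The order of genes on this scale therefore depends on the annotation as well as on the level. NR1D1 had the highest mean of the members on it in HT29 2D at 8.08 and in HCT116 2D at 9.34 CPM per kb. NR1D2 followed at 6.35 and 8.51 CPM per kb. In HCT116 2D this order rested on replicate 3, with 14.7 CPM per kb of NR1D1 and 10.7 of NR1D2, while replicates 1 and 2 held 6.91 and 6.44 of NR1D1 and 7.18 and 7.67 of NR1D2. In HT29 2D replicate 3 the 2 genes were at 8.83 and 8.91 CPM per kb. In 3D, BHLHE40 took the first place in LS513 (39.9 CPM per kb), HCT116 (39.4) and LS174T (15.6), and NR1D1 kept it in HT29 (10.3).

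PER1, the period gene that also responds quickly to hormones and serum, rose in HCT116. It lies on the minus strand at chr17:8140472-8156506 and has 23 exons. The HCT116 libraries held 42.2, 40.3 and 64.0 CPM in 2D and 71.8, 70.7 and 68.4 CPM in 3D. The 3D libraries were close together and above all 2D libraries, of which replicate 3 came nearest to them. The difference was 0.53 ± 0.14 (adjusted p = 0.008), and without HCT116 2D replicate 3 it was 0.74. Without replicate 1 or 2 of HCT116 2D it was 0.43 or 0.40, with adjusted p of 0.063 and 0.068, and PER1 was no longer called. In HT29 the libraries held 15.1, 14.4 and 17.0 CPM in 2D and 12.6, 13.4 and 12.6 CPM in 3D, a difference of -0.27 ± 0.15 (adjusted p = 0.17). The difference was 0.33 ± 0.15 in LS513 (adjusted p = 0.11) and 0.06 ± 0.15 in LS174T (adjusted p = 0.83). The growth effect was called different between lines (adjusted p = 0.039), and HT29 minus HCT116 gave -0.79 ± 0.21 (adjusted p = 0.019). The test over the 4 lines lost its call when any of 17 of the 24 libraries was left out, with adjusted p up to 0.12, and it was 0.054 with the size factors of DESeq2. HCT116 held the most PER1 in both growth conditions, and the other lines stayed between 12.6 and 27.3 CPM. LY6E, LINC00513 and AL355512.1 had the levels most like PER1 (r = 0.89, 0.86 and 0.85).

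PER2 and PER3 were not called in any line. For PER2 (chr2:238244038-238290102, minus strand) the difference was -0.33 ± 0.18 in HT29, -0.32 ± 0.17 in LS513, -0.21 ± 0.17 in LS174T and -0.001 ± 0.169 in HCT116, and 2D and 3D overlapped in every line. In HT29, without 2D replicate 2, the lowest 2D library, the difference was -0.48 with an adjusted p of 0.042. LS513 2D held the most PER2 at 34.1 ± 5.1 CPM and HT29 3D the least at 8.69 ± 0.90 CPM. For PER3 (chr1:7784320-7845177, plus strand) the level differed by line. HT29 held 7.78 to 13.7 CPM, HCT116 2.81 to 5.25 CPM and LS513 1.39 to 2.56 CPM. In LS174T, PER3 had 0, 1 and 1 count in the 2D libraries and 0 in each 3D library, below the floor of 3 counts, so no fold is given. In LS513 the 2D libraries held 2.25, 1.96 and 2.56 CPM of PER3 and the 3D libraries 1.48, 1.42 and 1.39 CPM, without overlap. That difference was -0.66 ± 0.25 with an adjusted p of 0.059, and it was called without HCT116 2D replicate 3 (adjusted p = 0.032) or LS174T 3D replicate 2 (adjusted p = 0.045). PER3 shares 16.7% of its exonic bases with UTS2 and Z98884.1 on the opposite strand. FECH had the levels most like PER2 (r = 0.84), followed by ATP6V1E2 (r = 0.73) and LSM14A (r = 0.73), while ANXA6, SLC43A1 and PER2 were nearest to PER3 (r = 0.76, 0.74 and 0.72).

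The output factors DBP and TEF rose in HCT116. DBP (chr19:48630030-48637438, minus strand) held 6.58, 6.18 and 19.1 CPM in the HCT116 2D libraries and 20.2, 21.9 and 29.1 CPM in the 3D libraries. TEF (chr22:41367333-41399326, plus strand) held 15.0, 15.9 and 34.7 CPM in 2D and 33.1, 35.7 and 44.9 CPM in 3D. For both genes 2D replicate 3 was far above the other 2D libraries, and for TEF it lay within the 3D range. The difference was 1.17 ± 0.30 for DBP (adjusted p = 0.0053) and 0.80 ± 0.23 for TEF (adjusted p = 0.013), and without 2D replicate 3 the values were 1.87 and 1.26. With 2D replicate 1, 2D replicate 2 or 3D replicate 3 left out, TEF was no longer called (adjusted p = 0.10, 0.094 and 0.065). In a fit of the 6 HCT116 libraries alone neither was called (adjusted p = 0.097 for DBP and 0.092 for TEF).

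In the other lines neither output factor was called. DBP held 7.59, 8.90 and 8.32 CPM in LS174T 2D and 11.7, 13.8 and 12.0 CPM in 3D, without overlap, a difference of 0.60 ± 0.30 (adjusted p = 0.16). Without HCT116 2D replicate 3 that adjusted p was 0.037. TEF held 12.7, 12.9 and 14.9 CPM in LS513 2D and 18.8, 24.3 and 17.0 CPM in 3D, without overlap, a difference of 0.57 ± 0.24 (adjusted p = 0.089), and without HCT116 2D replicate 3 the adjusted p was 0.018. DBP shares 10.1% of its exonic bases with SPHK2 on the opposite strand, and TEF shares none with another gene. TTYH1, P3H4 and RF02164 had the levels most like DBP (r = 0.89, 0.87 and 0.87), and GMPR, MYBPC3 and APOD those most like TEF (r = 0.88, 0.86 and 0.85).

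Leaving out HCT116 2D replicate 3 changed calls in other lines too, and the cause was not tested. Without it the counts in HCT116 stayed at 5 higher and 1 lower, where 15.7% and 14.5% of the 19833 genes then tested were called. In LS513, 4 members were called higher and 2 lower, against 13.5% and 10.5% of all genes, and in LS174T 2 were called higher, against 13.5%. The differences of the newly called members hardly moved. In LS513, PER1, TEF and PER3 were at 0.324, 0.565 and -0.665 without that library and at 0.329, 0.57 and -0.66 with it. In LS174T, DBP was at 0.602 without it and at 0.595 with it. The growth effect was then called different between lines for 6 members instead of 3, against 16% of all genes. DBP, PER3 and TEF were added at adjusted p of 0.0011, 0.027 and 0.014. The test of PER3 took in LS174T, where this gene was at the floor, so its call cannot speak for that line. NDRG1 held 53.3 CPM in HCT116 2D replicate 3, against 38.0 and 40.4 CPM in the other HCT116 2D libraries. The median of the 10 hypoxia-responsive genes was 0.16 higher there on the log2 scale than in those. CLOCK held 47.8 CPM there against 89.8 and 89.9 CPM. The part of these values in the result was not tested.

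**Figure D4:**
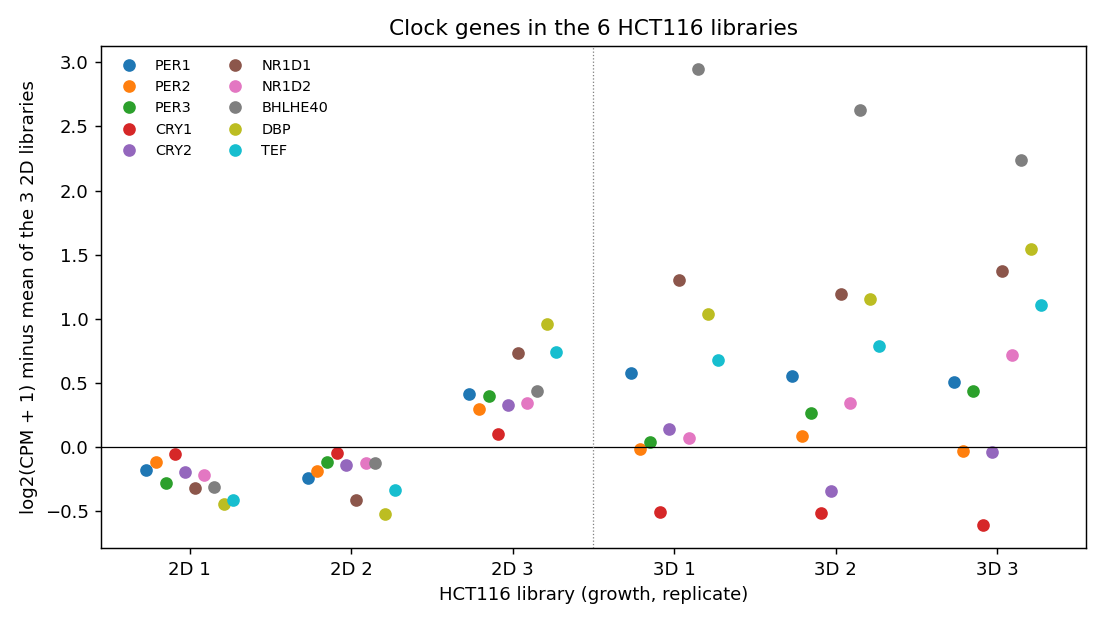
Each clock gene in the 6 HCT116 libraries as log2(CPM + 1) minus its mean over the 3 2D libraries, by library on the horizontal axis. All 10 genes are above 0 in 2D replicate 3 and at or below 0 in 2D replicates 1 and 2, and CRY1 is the lowest gene in each 3D library.

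Some members varied together from library to library. After subtracting the mean of each group, PER3 and TEF had r = 0.87 over the 24 libraries and r = 0.79 without HCT116 2D replicate 3. DBP and TEF had r = 0.76, which was 0.43 without that library, and PER1 and NR1D1 had r = 0.52, which was -0.01. PER2 and CRY2 had r = 0.71 and 0.63. CRY1 and BHLHE40, which differed between growth conditions in opposite directions, had r = 0.66 within the groups and 0.64 without that library. LS174T 3D replicate 2 and LS513 3D replicate 2 held the least of both genes in their groups, and r without them was not computed. Points in these correlations share their library, its depth and its scaling.

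The activators of the clock and the partners of its proteins were read from a list of 18 further genes, of which 15 were tested and RORB, CIART and FBXL21 were not. In HT29, 4 were called higher in 3D and 4 lower, against 21.1% and 19.6% of all tested genes. In LS513 the counts were 3 and 2, against 13.7% and 9.9% of all genes. In HCT116 they were 1 and 2, against 16.8% and 12.3%, and in LS174T 1 and 2, against 13.1% and 9.15%. Their median difference, over those above the floor, was 0.15 in LS513, -0.04 in LS174T, -0.05 in HT29 and -0.14 in HCT116. TIMELESS, a replication fork protein related to a clock protein of the fly, was called lower in all 4 lines, with differences of -0.67 in LS513, -0.65 in LS174T, -0.45 in HT29 and -0.38 in HCT116. ARNTL2, a paralog of ARNTL, fell by 0.68 in HT29, by 0.57 in LS513 and by 0.52 in HCT116. CLOCK fell from 54.7 ± 3.4 to 23.2 ± 3.2 CPM in HT29 (difference -1.24, adjusted p = 0.00041) and from 33.9 ± 1.7 to 18.1 ± 7.5 CPM in LS174T (-0.90, adjusted p = 0.013). ARNTL, the partner of CLOCK, rose from 10.5 ± 2.0 to 17.0 ± 1.0 CPM in HT29 (0.69, adjusted p = 0.0023) and was not called in the other lines. NPAS2, which can take the place of CLOCK, rose by 0.36 in HT29 (adjusted p = 0.026).

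NFIL3, a repressor at the D-box, rose by 0.65 in LS513 (adjusted p = 0.021) and by 0.58 in LS174T (adjusted p = 0.043). Of the kinases of the PER proteins, CSNK1D rose by 0.26 in LS513 and CSNK1E by 0.28 in HT29, 0.33 in LS513 and 0.33 in HCT116, but CSNK1E shares 21.1% of its exonic bases with a read-through gene on the same strand and is uncertain. The ubiquitin ligase part BTRC fell by 0.47 in HT29. USP2, a deubiquitinase, rose by 1.17 in HT29 from 0.53 ± 0.08 to 1.19 ± 0.15 CPM.

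**Figure D5:**
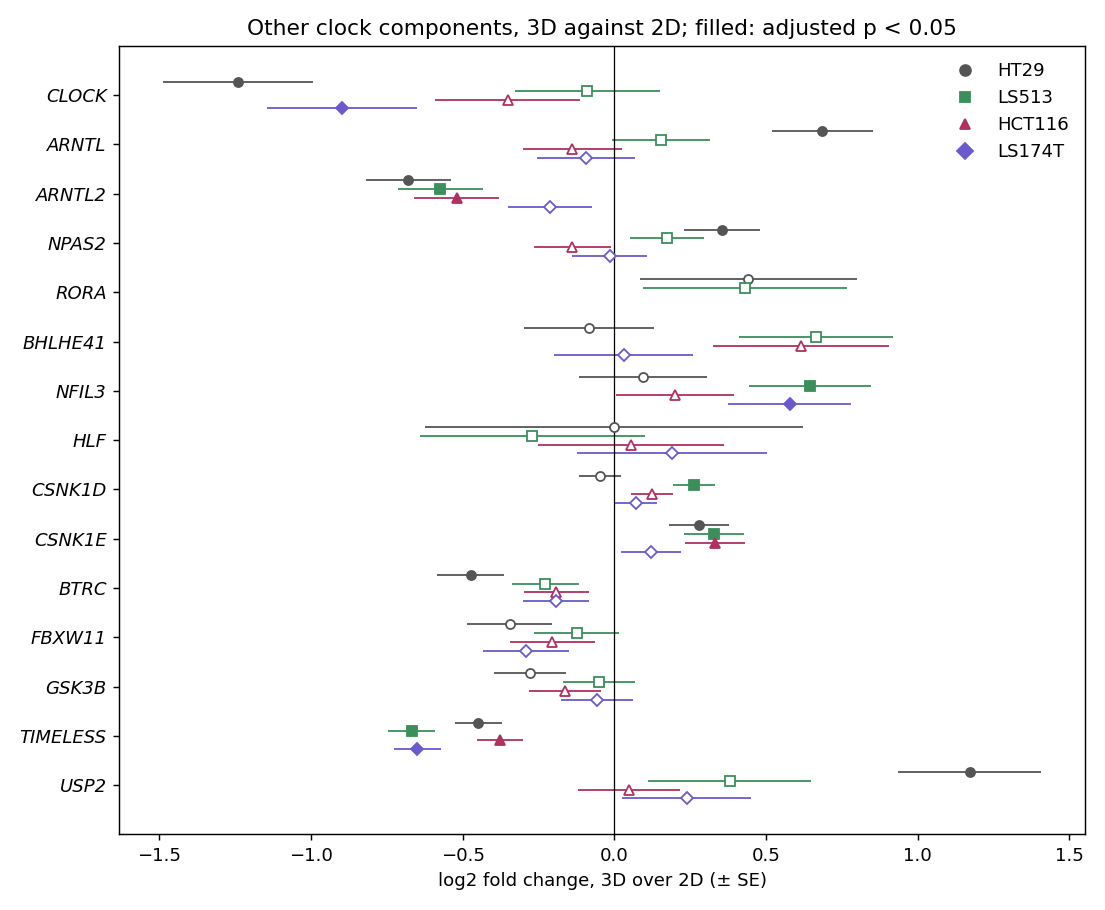
Difference between growth conditions (log2 of 3D over 2D, horizontal axis, ± SE) for the 15 tested genes of the list of other clock components in the 4 lines, with filled symbols for an adjusted p under 0.05. TIMELESS is filled and below 0 in all 4 lines, and RORA is left out in HCT116 and LS174T, where it was at the floor.

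Genes that the clock or glucocorticoid hormones are known to drive were read from a list of 10. Of these, 2 were called higher and 2 lower in HT29, against 21.1% and 19.6% of all tested genes. In LS513 the counts were 4 and 2, against 13.7% and 9.9% of all genes. In HCT116 they were 3 and 2, against 16.8% and 12.3%, and in LS174T 4 and 1, against 13.1% and 9.15%. In HT29, NAMPT, the enzyme that recycles nicotinamide to NAD, fell from 164 ± 6 to 72.0 ± 6.0 CPM, and the transcription factor KLF15 rose from 1.85 ± 0.56 to 7.34 ± 1.33 CPM. TSC22D3 (GILZ), a glucocorticoid-induced gene, rose by 1.77 in LS513, 1.69 in HCT116 and 1.05 in LS174T, and ALAS1, the first enzyme of haem synthesis, by 0.57 in LS513 and 0.32 in LS174T. KLF9 rose by 1.17 in HCT116. TSC22D3 was also called higher in HT29, by 0.65, where its libraries overlapped. FKBP5, another glucocorticoid-induced gene and named after its values were seen, was called lower in all 4 lines, with differences from -0.40 to -0.54.

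In 2D, 8 of the 10 members differed between the lines, against 91.7% of all genes, and BHLHE40 (adjusted p = 0.12) and DBP (adjusted p = 0.086) were not called. PER1, NR1D2 and TEF had their highest group mean in HCT116 3D, as had NR1D1 and DBP. PER2 was highest in LS513 2D, PER3 in HT29 2D, and CRY1 and CRY2 in LS174T 2D. Most neighbours in these orders overlapped, but HCT116 3D was clear of the next group for PER1, NR1D1, DBP and TEF, and LS174T 2D for CRY1. With 3 libraries against 3, an exact permutation test of a single gene cannot go below p = 0.1, so the calls rest on the spread shared across genes in the fit.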

How the data were processed

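RNA sequencing counts from 24 libraries of 4 CRC cell lines were analysed. The authors trimmed the reads (Trim Galore 0.4.1, per the submitters' processing notes), aligned them with STAR, removed reads aligned more than once and deposited raw counts per gene from HTSeq 0.5.3, without normalization; the strand option is not given in the sources used here. The notes name hg19 and the methods an Ensembl annotation of GRCh38. Of the 58243 identifiers, 99.55% are in GENCODE 29 (GRCh38), which gave symbols and positions. Groups came from the labels, and technical replicates, which agreed within counting noise, were summed. In R 4.3.3, edgeR 4.0.16 was used (filterByExpr, TMM, robust quasi-likelihood fit of 8 groups) and p was adjusted by Benjamini-Hochberg over 19387 genes, called under 0.05 with no fold cutoff. Tests were two-sided and the code was tested on simulated data. All members were named. Of the list of 20 other clock genes, 2 are not reported here and are left out of its counts, and the rest were named where called, and up to 2 output and hypoxia genes per line by the smallest adjusted p. For each member the 3 genes of highest Pearson r of log2(CPM + 1), centred by line, were named. Alternatives were DESeq2 1.42.0, its size factors, all genes with at least 1 count, a fit of 1 line, a block of replicate numbers, other cutoffs, and leaving out technical replicate d or each library. The members and lists were chosen with earlier results of these data known.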

Additional observations from a re-analysis of the deposited data

Results flagged for a closer look

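For 3 clock genes the difference between 3D and 2D was not the same in the 4 lines, by edgeR's test of that difference over all lines. BHLHE40 had an adjusted p of 0.008, with its difference largest in LS513 and smallest in HT29, and this call was kept when any single library was left out. PER1 had an adjusted p of 0.039, with a value above 0 in HCT116 and below 0 in HT29. NR1D1 had an adjusted p of 0.042, with values above 1 in LS513 and HCT116 and the smallest value in LS174T. The calls for PER1 and NR1D1 were each lost in 17 of the 24 fits that left out a library.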

How the results depend on the processing

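The counts of called members were 5 higher and 1 lower in HCT116, 1 and 1 in HT29, 2 and 1 in LS513 and 1 and 0 in LS174T, with 3 members whose growth effect differed between lines. With the study's cutoff on the fold change (log2 under -0.5 or over 1.5) the higher counts were 1 in HCT116, 0 in HT29, 0 in LS174T and 1 in LS513, and the lower count in LS513 was 0. At an adjusted p under 0.01 the higher counts were 0 in HT29 and 0 in LS174T. With all genes that had at least 1 count they were 2 in HT29 and 2 in LS174T, the lower count in LS513 was 2, and 5 members differed between lines. In a fit of only the 6 libraries of a line the higher counts were 3 in HCT116 and 2 in LS174T, and the lower count in LS513 was 2. Without technical replicate d the higher count in HT29 was 0 and the lower count in LS513 was 2. With each library left out in turn, the higher counts ranged from 3 to 5 in HCT116, 0 to 1 in HT29, 0 to 2 in LS174T and 2 to 4 in LS513, the lower counts from 1 to 2 in HT29, 0 to 1 in LS174T and 0 to 2 in LS513, and the members that differed between lines from 1 to 6. Counts over all genes moved between these fits too. In LS174T, 4305 genes were called in the fit as reported and 4631 with all genes that had at least 1 count. Without LS174T 3D replicate 2 that number was 2083, and without LS174T 3D replicate 3 it was 6038. For the single-line fits and the other cutoffs the share of all genes was not computed. The cause of these changes was not tested.

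Whether the replicate numbers pair the libraries could not be decided. After subtracting the mean of each group, the correlations of same-numbered 2D and 3D libraries ran from -0.21 to 0.22. Those of differently numbered libraries ran from -0.30 to 0.26, and not every library correlated best with its own number. With 3 libraries per group such values balance around 0, so they neither show nor exclude a pairing. With a replicate block the higher count in HT29 was 0, the lower counts were 2 in HT29 and 2 in LS513, and the values of CRY2 and TEF in HT29 were -0.068 and -0.057. The test of PER1 between lines then had an adjusted p of 0.14 and lost its call. Over all genes the fit with the block called 5415 in HT29 and 3635 in LS513, against 7887 and 4571 in the fit as reported.

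The differences that turned sign were not called in the fit as reported. PER2 in HCT116 was 0.005 with DESeq2, 0.005 with its size factors, 0.014 with the replicate block and -0.099 to 0.142 with a library left out. The ranges with a library left out were -0.23 to 0.078 for CRY2 in HCT116, -0.064 to 0.212 for CRY2 in HT29, -0.09 to 0.396 for DBP in HT29, -0.102 to 0.276 for DBP in LS513, -0.502 to 0.008 for NR1D2 in HT29 and -0.083 to 0.153 for PER1 in LS174T. PER3 was at 0 to 1 count in LS174T, in libraries of 29400099 to 31484814 counts in total, so no difference is detectable there.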
